A study of Mus musculus with 22 samples.

Results

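The early superficial cells of the control mouse esophagus were defined by the keratin RNA that each cell held. A control cell was counted as early superficial when its unique molecular identifiers (UMIs, each standing for 1 captured RNA molecule) of Krt5, Krt14, Krt15, Krt4, Krt13 and Krtdap came to at least 10 in sum, the basal keratins Krt5, Krt14 and Krt15 gave under 10% of them, and Sprr3, Crct1, Cnfn and Slpi gave under 0.5% of all its UMIs. This choice kept 359 of the 1500 control cells, out of 4500 cells in the series. The epithelium came from 6 untreated C57BL6 mice, 3 old (18 to 20 months) and 3 young (3 to 4 months), and was peeled from the muscle, dissociated with Dispase I and trypsin and profiled by inDrop single cell RNA sequencing. Each control mouse gave 2 libraries, which were pooled, so the mouse was the replicate. The study set these controls beside C57BL6 mice with eosinophilic esophagitis (EoE) induced with MC903 and ovalbumin (OVA), aged 6 to 8 weeks or 19 to 20 months, and mice with esophageal squamous cell carcinoma (ESCC) induced with 4NQO, aged 8 to 10 months.

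Stratified squamous epithelium renews from a basal layer that holds the dividing cells and sits on the basement membrane. Cells that leave this layer stop dividing, replace Krt5, Krt14 and Krt15 by Krt4 and Krt13, strengthen their desmosomes and, nearer to the lumen, make the small proline rich proteins and lipids that toughen the outermost layers. The early superficial cells chosen here lie between these states, past the change of keratins and short of the late genes.

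The other control cells were sorted by the same genes into 706 cells on the basal side (basal keratins at least 50%), 272 intermediate cells (10 to 50%), 145 late superficial cells (basal keratins under 10%, late genes at least 0.5%) and 18 cells with under 10 keratin UMIs. The classes are ranges cut along 1 gradient, not separate cell types. In the early superficial cells the 6 keratinocyte genes gave a median of 97 UMIs per cell (13 to 509) and the basal keratins a median of 1.56% of these. Of the 359 cells, 119 had no basal keratin UMI and 225 had no UMI of the 4 late genes. Near the basal limit, 82 early superficial cells held 5 to 10% basal keratin and 43 intermediate cells held 10 to 15%, with Mt4 at 5222 and 3677 CPM (UMI counts scaled to the total of the cells summed). Near the late limit, 41 cells held 0.25 to 0.5% late genes and 18 late superficial cells held 0.5 to 0.75%, with Mt4 at 6790 and 7948 CPM. Of the early superficial cells, 2 held 10 to 20 keratin UMIs, so few lay near that minimum.

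**Figure D1:**
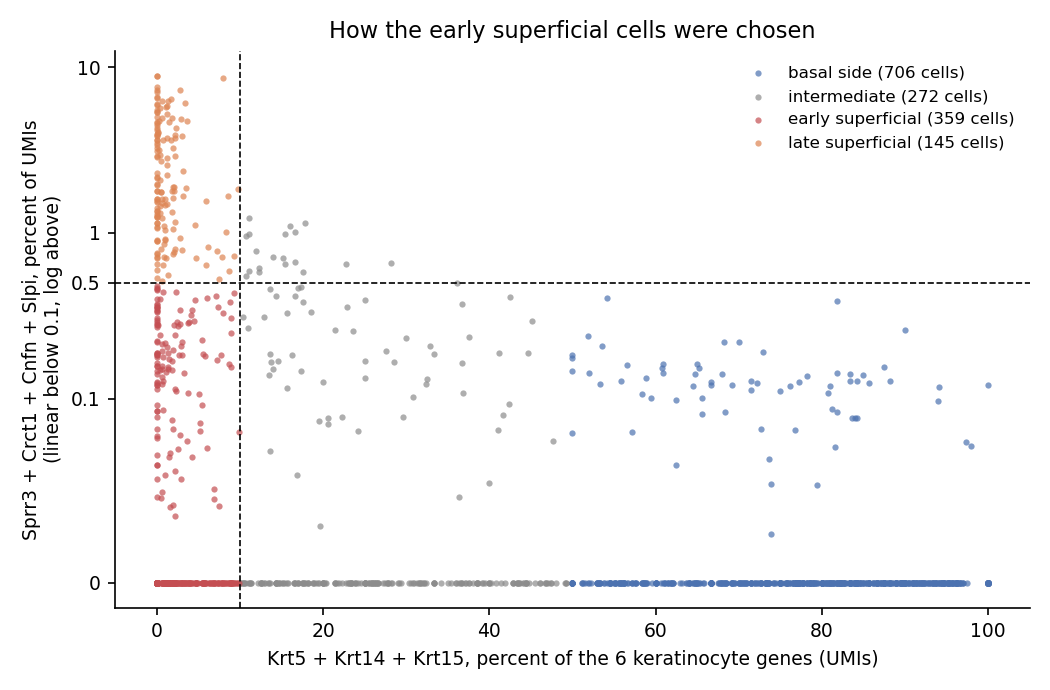
Each point is 1 control cell, by the share of basal keratin UMIs among the 6 keratinocyte genes (x axis, percent) and the share of the 4 late genes among all its UMIs (y axis, percent, linear below 0.1 and log above). The 359 early superficial cells fill the corner under both dashed limits, and they run into the 272 intermediate and 145 late superficial cells without a gap.

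The early superficial cells held 446 to 6105 UMIs each (median 1191), against medians of 945.5 on the basal side, 899.5 in intermediate and 1263 in late superficial cells. Their summed UMIs per mouse ran from 26352 to 127993 (median 91470). Of the cell barcodes, 122 occurred in both libraries of the same mouse (4 to 36 in each of the 6 mice), so that some cells may be counted in both, and 112 of these pairs fell in the same class, with UMI totals that correlated at r = 0.934 on the log scale. At most 1 barcode was shared between any libraries of different mice. Counting each shared barcode once left 1378 control cells, 332 of them early superficial, and the results are given with all cells unless stated otherwise. Scrublet marked 8 control cells as doublets, all of them intermediate. Of 10 immune markers 1 had a UMI in the early superficial cells, of 6 endothelial markers 0, of 7 muscle markers 1 and of 7 fibroblast markers 5, and Ptprc, Cd3e, Cdh5, Myh11 and Col1a1 were at 0. The summed share of these lists reached at most 0.0133% of the UMIs in a mouse, the value of the fibroblast list. Mitochondrial transcripts made up 4.91% ± 1.46 of the early superficial UMIs (SD, n = 6), 5.33% ± 1.52 on the basal side, 5.20% ± 1.66 in intermediate and 2.7% ± 0.633 in late superficial cells (n = 5), and the part of this difference in the comparison with late superficial cells was not tested.

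Every control mouse had early superficial cells. They were 14 of 71 cells (19.7%), 103 of 409 (25.2%) and 68 of 224 (30.4%) in old mice 3, 4 and 5, and 71 of 355 (20.0%), 36 of 200 (18.0%) and 67 of 241 (27.8%) in young mice 1, 2 and 6. Old mouse 3 had no late superficial cell among its 71 cells, which allows a share of up to 5.06% (exact 95% interval, counting error only), so the comparison with late superficial cells rests on 5 mice, and young mouse 2 had 8 such cells. The shares of old mice (25.1% ± 5.32, SD, n = 3) and young mice (21.9% ± 5.18, n = 3) overlapped, with p = 0.6 in a two-sided exact permutation test whose smallest possible p is 0.1.

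The genes of the rule describe the choice and were not tested. Krt4, the type II keratin of the suprabasal esophagus, ran from 38441 to 56191 CPM (median 47832) in early superficial cells, 15481 to 21024 CPM (median 17004) in intermediate cells and 1617 to 4638 CPM (median 2727) on the basal side over the 6 mice. Krtdap, a small secreted protein of differentiating keratinocytes, ran from 10012 to 12837 CPM (median 10453), against 1468 to 4699 CPM (median 3155) and 16.4 to 538 CPM (median 97.7). In late superficial cells Krt4 stood at 78978 ± 8971 CPM and Krtdap at 23733 ± 2479 CPM (SD, n = 5), above every early superficial value of either gene. Some Krt5 RNA is allowed by the rule, and it stood at 487 to 727 CPM (median 622) in early superficial cells, against 7596 to 9958 CPM (median 9157) on the basal side. These levels are CPM of all UMIs. The levels of all other genes are CPM of the UMIs outside the 10 genes of the rule.

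The promoters of 4 genes whose RNA was high in these cells are shown because the keratinocyte genes Krtdap and Dmkn lie beside each other, and because Mt4 and Hmgcs1 carry the leading marker and the sterol genes described further on. These 4 were taken from 13 promoters searched, of which 8 held none of the letters searched, so they do not stand for the rest. Each window runs from 250 bases before the RefSeq start of the gene to 50 after it (GRCm38.p6, plus strand), and capitals mark TGANTCA, the letters bound by AP-1 factors, TATAAA, the TATA box, and TCACCCCAC, a sterol response element, on either strand.
Krtdap, chr7:30787655-30787954: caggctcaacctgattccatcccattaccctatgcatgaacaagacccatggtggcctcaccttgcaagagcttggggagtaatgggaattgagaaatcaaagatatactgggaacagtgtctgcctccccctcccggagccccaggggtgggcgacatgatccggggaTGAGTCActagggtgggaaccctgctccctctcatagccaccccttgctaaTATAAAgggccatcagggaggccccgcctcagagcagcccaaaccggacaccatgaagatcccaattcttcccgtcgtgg
Dmkn, chr7:30763506-30763805: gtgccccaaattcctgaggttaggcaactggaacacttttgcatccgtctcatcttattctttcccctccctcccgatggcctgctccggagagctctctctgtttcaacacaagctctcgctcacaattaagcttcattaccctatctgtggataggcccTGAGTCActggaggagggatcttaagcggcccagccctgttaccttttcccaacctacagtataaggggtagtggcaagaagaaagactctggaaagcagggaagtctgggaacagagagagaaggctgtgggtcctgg
Mt4, chr8:94136954-94137253: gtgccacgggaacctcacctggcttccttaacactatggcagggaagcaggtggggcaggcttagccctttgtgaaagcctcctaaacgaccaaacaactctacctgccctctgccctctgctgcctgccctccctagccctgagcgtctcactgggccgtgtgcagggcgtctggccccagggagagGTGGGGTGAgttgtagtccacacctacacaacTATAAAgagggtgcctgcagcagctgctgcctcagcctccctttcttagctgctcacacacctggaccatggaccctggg
Hmgcs1, chr13:119690101-119690400: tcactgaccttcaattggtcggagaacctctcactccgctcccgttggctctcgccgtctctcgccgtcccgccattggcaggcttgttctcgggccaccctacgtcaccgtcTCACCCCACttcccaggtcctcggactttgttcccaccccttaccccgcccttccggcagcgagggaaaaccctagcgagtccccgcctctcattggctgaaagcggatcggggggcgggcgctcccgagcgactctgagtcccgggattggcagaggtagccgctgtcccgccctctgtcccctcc
TGANTCA reads the same on both strands and stood 81 bases before the start of Krtdap and 89 before that of Dmkn. TATAAA stood 30 bases before the starts of Krtdap and Mt4. TCACCCCAC stood 137 bases before the start of Hmgcs1, and on the minus strand 62 before that of Mt4. Over the 27025 promoters of the table, 7.93% held TGANTCA, 14.2% TATAAA, 0.522% TCACCCCAC and 2.01% AACCNGTT, the letters bound by Grainyhead-like factors. Of the genes tested against all other control cells, 1643 had a promoter in the table, and 5.84% of these held TGANTCA, 7.79% TATAAA, 0.791% TCACCCCAC and 1.77% AACCNGTT. The 280 promoters of genes higher in early superficial cells gave 7.14%, 8.57%, 1.43% and 2.5%, and the 305 of genes lower in them gave 5.90%, 9.18%, 0.656% and 0.984%. Of 9 promoters of sterol genes that were higher, 1 held TCACCCCAC, that of Hmgcs1. A match is a run of letters, not a bound site.

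Of the labelled markers that the rule did not use, Mt4 had its highest mean in early superficial cells, while Dsc2 and Lypd3 had theirs in late superficial cells. Mt4, a metallothionein of stratified squamous epithelium, stood at 5300.1 to 8633 CPM (median 6742) in early superficial cells, 1946 to 4086 CPM (median 3138) in intermediate cells and 169 to 517 CPM (median 288) on the basal side, and at 2585, 5464, 4397, 9425 and 5241 CPM in the late superficial cells of old mice 4 and 5 and young mice 1, 2 and 6. Every early superficial value lay above every intermediate and basal value, and the late superficial values spread across them. Dsc2, the desmocollin of differentiating layers, stood at 863 to 1889 CPM (median 1259) in early superficial and 163 to 1108 CPM (median 528) in intermediate cells, and Lypd3, a GPI-anchored surface protein of suprabasal keratinocytes, at 1346 to 2242 CPM (median 1894) and 352 to 1206 CPM (median 785). Thinned to 400 UMIs per cell, a UMI of Mt4 was seen in 84.7% of early superficial cells, 57.0% of intermediate, 9.67% of basal side and 69.0% of late superficial cells, and without thinning in 96.9%, 77.9%, 19.5% and 83.4%.

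**Figure D2:**
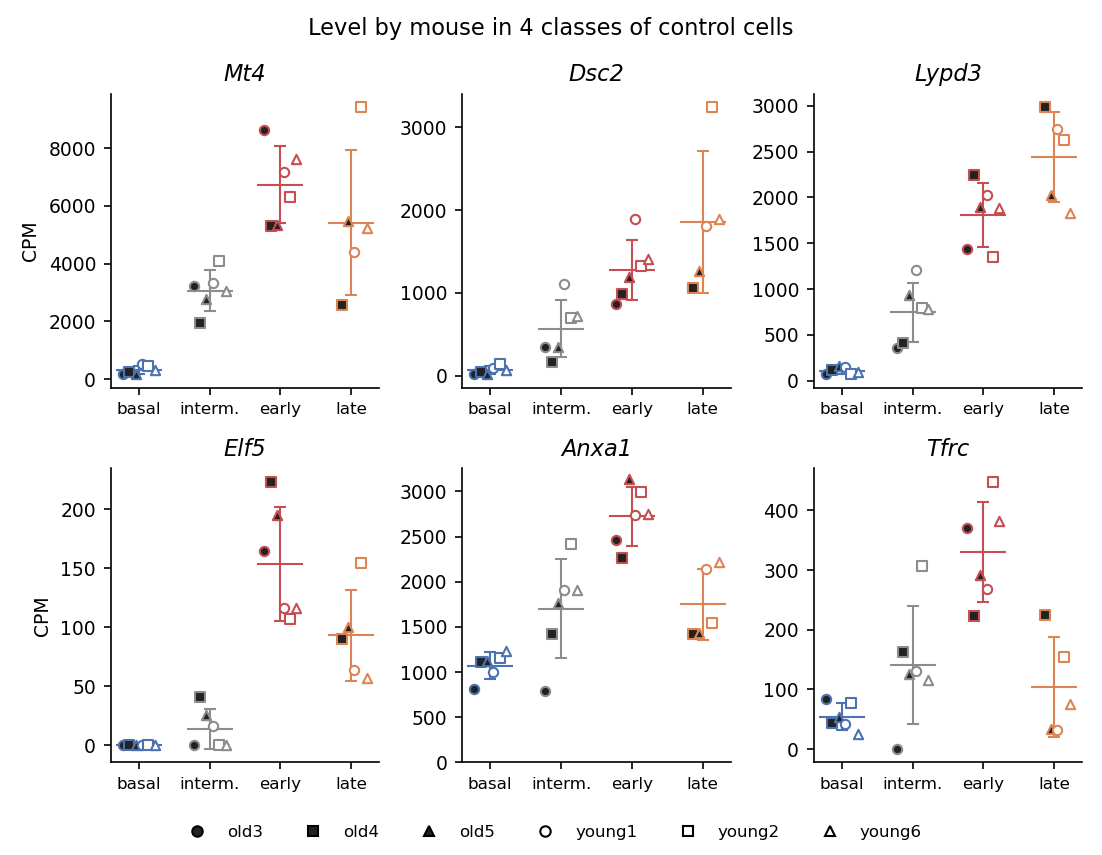
Level by mouse (y axis, CPM of UMIs outside the 10 genes of the rule) of Mt4, Dsc2, Lypd3, Elf5, Anxa1 and Tfrc in basal side, intermediate, early superficial and late superficial cells (x axis), with filled symbols for old and open symbols for young mice, and the mean and SD as lines. Mt4, Elf5, Anxa1 and Tfrc have their highest mean in early superficial cells, while Dsc2 and Lypd3 do so in late superficial cells.

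UMIs were added up per mouse and class, and the classes were compared by the quasi-likelihood test of edgeR with the mouse as a block, Benjamini-Hochberg adjustment over all genes tested and a threshold of 0.05. Differences are log2 fold changes ± standard error. A gene had to pass a filter on low counts, so a gene with UMIs in 1 class alone could enter only because it was high there, and the counts over gene lists given below are descriptions. Against all other control cells of the same mouse, 364 of 2055 genes were higher in early superficial cells (17.7%) and 385 were lower (18.7%). All 3 labelled markers outside the rule were higher, Mt4 by 2.06 ± 0.11 (adjusted p = 8.81e-14), Dsc2 by 1.68 ± 0.15 (adjusted p = 3.22e-10) and Lypd3 by 1.65 ± 0.15 (adjusted p = 5.57e-10), each in 6 of 6 mice. The classes are cut from the same cells by genes that vary with differentiation, so these tests describe how far other RNA follows the cut.

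The 10 genes with the largest rise that held in every mouse were Elf5, Fermt3, Mt4, Hsd17b7, Tfrc, Bag2, Ly6g6e, Aldh1a7, Cyp2c65 and Acsl1. Most of the other control cells were basal side cells (706). Of these 10 genes only Mt4, Tfrc and Cyp2c65 were called higher than both intermediate and late superficial cells. Elf5, an ETS transcription factor of differentiating epithelium, stood at 164, 223, 195, 117, 107 and 116 CPM in old mice 3, 4 and 5 and young mice 1, 2 and 6, against 0, 28.3, 22, 17.2, 6.65 and 14.4 CPM in their other cells. No value of the other cells reached the lowest early superficial value, and the difference was 3.05 ± 0.37 (adjusted p = 1.22e-07). Tfrc, the transferrin receptor that takes up iron, stood at 223 to 449 CPM (median 331) against 52.8 to 113 CPM (median 63.1) (1.95 ± 0.23, adjusted p = 7.66e-08). Acsl1, which activates long chain fatty acids, stood at 235 to 583 CPM (median 439.5) against 59.8 to 154 CPM (median 113) (1.82 ± 0.17). Of the rest, Hsd17b7, a sterol reductase, was higher by 1.95, Fermt3, a kindlin that activates integrins, by 2.08, Bag2, a co-chaperone, by 1.92, Ly6g6e, a Ly6 family surface protein, by 1.92, Aldh1a7, an aldehyde dehydrogenase, by 1.87 and Cyp2c65, a cytochrome P450, by 1.86.

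Most of the genes that fell furthest are known from dividing cells. Cdk1, the kinase that drives mitosis, had no UMI among 441774 in early superficial cells and 172 in the other control cells, at least 21.2-fold lower when 3 UMIs over the class are taken as the floor. Cenpa, a centromeric histone, had 1 UMI against 339, a ratio of 125 with a counting interval of 22.3 to 4958. Mki67, the proliferation marker, had 3 UMIs against 293, a ratio of 36.1 with an interval of 12.2 to 175.9. Top2a, Ccna2, Cdc20, Prc1 and Anln, all of replication or division, followed, with Smoc2, a matricellular protein, and Cav1, a caveolin. Of 35 genes of DNA replication and mitosis, 10 were tested and all 10 were lower, with a median of -4.39, against -0.00 over all 2055 genes. Their summed share was 0.0430% ± 0.0103 of the early superficial UMIs, 0.637% ± 0.117 on the basal side and 0.288% ± 0.123 in intermediate cells (SD, n = 6), without overlap between the early superficial values and either. In late superficial cells it was 0.0400% ± 0.0169 (n = 5), so the low share was not particular to the early superficial cells. After thinning, 2 of 359 early superficial cells had an Mki67 UMI, against 77 of 703 on the basal side and 0 of 145 late superficial cells. Cdkn1a, the cyclin-dependent kinase inhibitor p21, was higher, at 938 to 1398 CPM (median 1326) against 325 to 836 CPM (median 578) (1.07 ± 0.15, adjusted p = 1.66e-06). Against late superficial cells alone Cdkn1a was lower, at -0.90.

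The neighbouring classes bound the early superficial cells on both sides. Against intermediate cells 127 of 988 genes were higher (12.9%) and 145 were lower (14.7%), and against late superficial cells 204 of 1102 were higher (18.5%) and 207 were lower (18.8%). In the latter fit all genes shared 1 estimate of the spread, so that its p-values can be very small. Both comparisons use the same early superficial sums, so a gene high in these sums tends to be higher in both, and their values are set side by side below without a test of the overlap. Counts over gene lists are to be read beside the shares of all genes in the same comparison. Against all other control cells these shares were 17.7% higher and 18.7% lower.

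Mt4 exceeded both neighbours, by 1.05 ± 0.09 against intermediate cells (adjusted p = 3.30e-11) and by 0.43 ± 0.12 against late superficial cells (adjusted p = 0.0021), the latter in 3 of 5 mice only. This second difference was lost under DESeq2 (adjusted p = 0.090), without the mouse as a block (0.13), with late genes under 0.25% (0.065) and without old mouse 4 (0.25, adjusted p = 0.16). Gja1, the gap junction protein connexin 43, was higher by 0.66 ± 0.09 and 0.51 ± 0.13 (adjusted p = 1.29e-06 and 4.02e-04), at 3412 to 4699.6 CPM (median 4292) in early superficial, 1629 to 3209.8 CPM (median 2388) in intermediate and 3057, 3398, 3118, 4172 and 2743 CPM in late superficial cells. Anxa1, a membrane-binding annexin with anti-inflammatory roles, was higher by 0.56 ± 0.11 and 0.62 ± 0.14 (adjusted p = 1.84e-04 and 4.29e-05), and Tfrc by 0.95 ± 0.29 and 1.67 ± 0.37 (adjusted p = 0.012 and 4.13e-05). Gja1, Anxa1 and Tfrc kept both calls under every alternative run, and their early superficial levels were higher than the late superficial ones in 4, 5 and 4 of 5 mice. These genes were picked out after their values were seen. Of 877 genes tested in both comparisons, 202 were higher than in late superficial and 127 higher than in intermediate cells. Mt4, Gja1, Anxa1 and Tfrc were among the 7 that were higher than both neighbours. Another 73 were higher than in late superficial and lower than in intermediate cells, and 63 the reverse. Among the 877 genes, 121 were lower than in late superficial and 113 lower than in intermediate cells.

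The members of single families changed places across the classes. Among the desmocollins, the cadherins of desmosomes, Dsc3 stood at 782 to 1239 CPM (median 904) in early superficial cells and 179.8, 366, 272, 155 and 132 CPM in late superficial cells (2.09 ± 0.23, adjusted p = 1.49e-18), while Dsc1 had 5 UMIs among 417450 in the former and 119 among 196373 in the latter (ratio 50.6, counting interval 21.1 to 158.7). Dsc2 was higher than in intermediate cells (1.20 ± 0.18, adjusted p = 3.23e-06) and stood at -0.24 ± 0.15 against late superficial cells (adjusted p = 0.21). Among the metallothioneins, which bind zinc and copper, Mt1 was lower than in intermediate cells (-0.72 ± 0.10, adjusted p = 1.39e-06) and higher than in late superficial cells (2.16 ± 0.17, adjusted p = 3.23e-35), at 1521 to 3047 CPM (median 2300.3) between 2548 to 4617 CPM (median 3464) and 584, 466.4, 592, 309 and 605 CPM. Mt4 was thus higher than in intermediate cells where Mt1 was lower. Of the connexins, Gjb2 (connexin 26) was far higher than in intermediate cells (2.27 ± 0.24) and far lower than in late superficial cells (-2.04 ± 0.16), where Gja1 was lower than in early superficial cells.

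**Figure D3:**
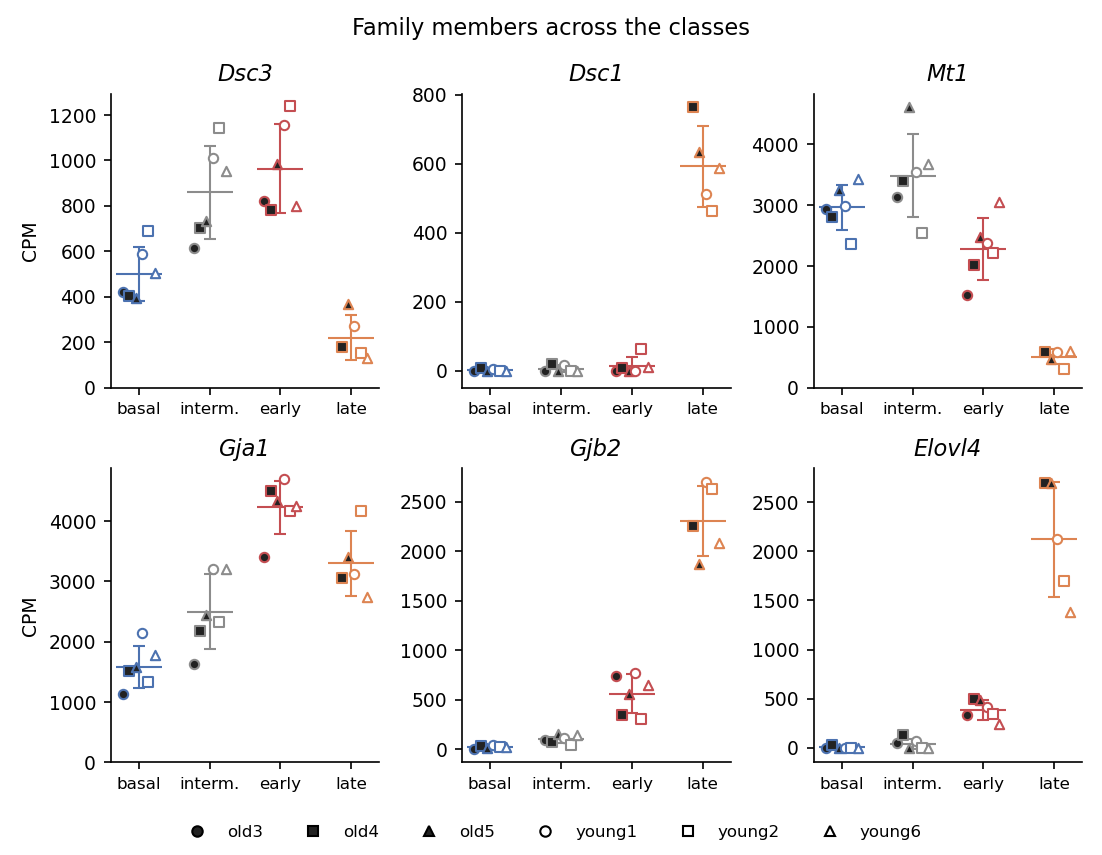
Level by mouse (y axis, CPM of UMIs outside the 10 genes of the rule) of Dsc3, Dsc1, Mt1, Gja1, Gjb2 and Elovl4 in the 4 classes (x axis), with symbols and lines as for the markers. The means of Dsc3, Mt1 and Gja1 drop from early to late superficial cells, while Dsc1, Gjb2 and Elovl4 climb to a late superficial level above every early superficial value.

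Against all other control cells, most tested genes of the desmosome, which joins cells to each other, were higher, and most of the hemidesmosome, which anchors them to the basement membrane, were lower. Of 16 desmosome genes 8 were tested against all other control cells, and 7 were higher and 0 lower (median 0.84), among them Dsp, desmoplakin (0.89 ± 0.11), Pkp1, plakophilin 1 (1.02 ± 0.12), and Perp, a tetraspan protein of desmosomes (0.74 ± 0.11). The remaining gene was Pkp3 at 0.43 ± 0.22 (adjusted p = 0.13). Against late superficial cells 2 of 10 desmosome genes tested were higher and 6 lower (median -0.46), with Dsp, Pkp1 and Perp among the lower ones at -0.57 ± 0.12, -0.33 ± 0.13 and -0.48 ± 0.13. Against intermediate cells 5 of 7 were higher and 0 lower (median 0.53). Of 16 genes of the hemidesmosome and basement membrane 8 were tested, and 7 were lower and 0 higher (median -2.62). Col17a1, the collagen of hemidesmosomes, stood at 11.6 to 103 CPM (median 59.8) against 1218 to 1409 CPM (median 1329) on the basal side and was lower than in intermediate cells, at -3.32 ± 0.27 (adjusted p = 2.31e-11). Dst, a plakin of hemidesmosomes, and Itga6, the integrin that binds laminin, were lower than in intermediate cells too, at -2.56 ± 0.21 and -1.99 ± 0.21. Ccnd2, cyclin D2, and Glul, glutamine synthetase, completed the genes that fell most from intermediate cells, at -2.16 and -2.14, together with H19.

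Of 28 squamous lineage transcription factors 20 were tested against all other control cells, with a median of 0.41. Of these 12 were higher and 3 lower, beside 17.7% and 18.7% of all genes. Grhl1 and Grhl3, Grainyhead-like factors of barrier formation, were higher by 1.79 ± 0.29 and 1.5 ± 0.16, Zfp750, an activator of late differentiation, by 1.58 ± 0.18, and Klf4, a barrier regulator, by 0.52 ± 0.13. Grhl3 stood at 411 to 968 CPM (median 772) against 48.1 to 423 CPM (median 280.1), higher in 6 of 6 mice. Cebpb, a factor of keratinocyte differentiation, was also higher (0.76 ± 0.21). Trp63, the p63 factor that maintains basal cells, was lower, at -1.22 ± 0.16, as was Sox2, a factor of esophageal progenitors, at -0.82 ± 0.15 (adjusted p = 5.83e-07 and 7.72e-05). Against intermediate cells only 3 of 18 tested were higher, Grhl3, Klf4 and Zfp750, and 2 were lower, Sox2 and Trp63 (median 0.18). Over all genes 12.9% were higher and 14.7% lower in that comparison. Against late superficial cells 3 of 20 were higher, among them Klf5, a factor of the proliferating layers, and Trp63 (0.97 ± 0.15 and 1.15 ± 0.37). Another 5 were lower, among them Grhl3, Klf4 (-0.79 ± 0.13) and Hopx (-3.87 ± 0.24), beside 18.5% of all genes higher and 18.8% lower. Of the Notch ligands, Jag2 had 9 UMIs in early superficial and 329 in other control cells (-3.78 ± 0.31), while Jag1 was higher by 0.80 ± 0.22 (adjusted p = 0.0057), a call that was lost under DESeq2 (0.77, adjusted p = 0.0522) and without old mouse 4 (0.64, adjusted p = 0.0621 in edgeR).

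Sterol and barrier lipid genes were mostly higher than in intermediate cells, and barrier lipid genes were lower than in late superficial cells. Of 24 genes of sterol metabolism, a list drawn up after values were seen, 13 were tested against all other control cells and all 13 were higher (median 1.23). Msmo1, a sterol oxidase, stood at 249 to 583 CPM (median 468) against 93.1 to 189 CPM (median 117) (1.66 ± 0.17), and Sqle, squalene epoxidase, at 123 to 348 CPM (median 268) against 12.0 to 131 CPM (median 77.6) (1.72 ± 0.25). Srebf2, the transcription factor of this pathway, was higher by 1.61 ± 0.20, and Hmgcs1, whose promoter is printed above, by 1.08 ± 0.16. Against intermediate cells 6 of 7 sterol genes tested were higher (median 1.20), and against late superficial cells 0 of 13 were higher and 3 were lower.

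Barrier lipid genes, which make and carry the ceramides and very long chain fatty acids of the outer layers, stood between both neighbours. Of 26 on the list, 8 of 13 tested were higher than in all other control cells and 0 lower (median 0.66). Against the neighbours, 8 of 9 tested were higher than in intermediate cells (median 1.04) and 12 of 13 tested were lower than in late superficial cells (median -1.33). Elovl4, which makes very long chain fatty acids, stood at 243 to 498 CPM (median 381) in early superficial, 0 to 132 CPM (median 22) in intermediate and 2697, 2698, 2127, 1699.6 and 1381 CPM in late superficial cells (2.63 ± 0.35 and -2.40 ± 0.17), with no overlap between classes. Fabp5, a fatty acid carrier, was higher than in intermediate cells by 1.33 ± 0.10 and lower than in late superficial cells, at -0.56 ± 0.12. Abca12, the lipid transporter of lamellar granules, and Alox12b, an epidermal lipoxygenase, were lower than in late superficial cells, at -1.71 ± 0.34 and -3.16 ± 0.24. Psapl1, a saposin-like protein, and Spink5, a protease inhibitor, moved as Elovl4 did, at 1.98 and 1.92 against intermediate and -1.46 and -2.36 against late superficial cells.

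**Figure D4:**
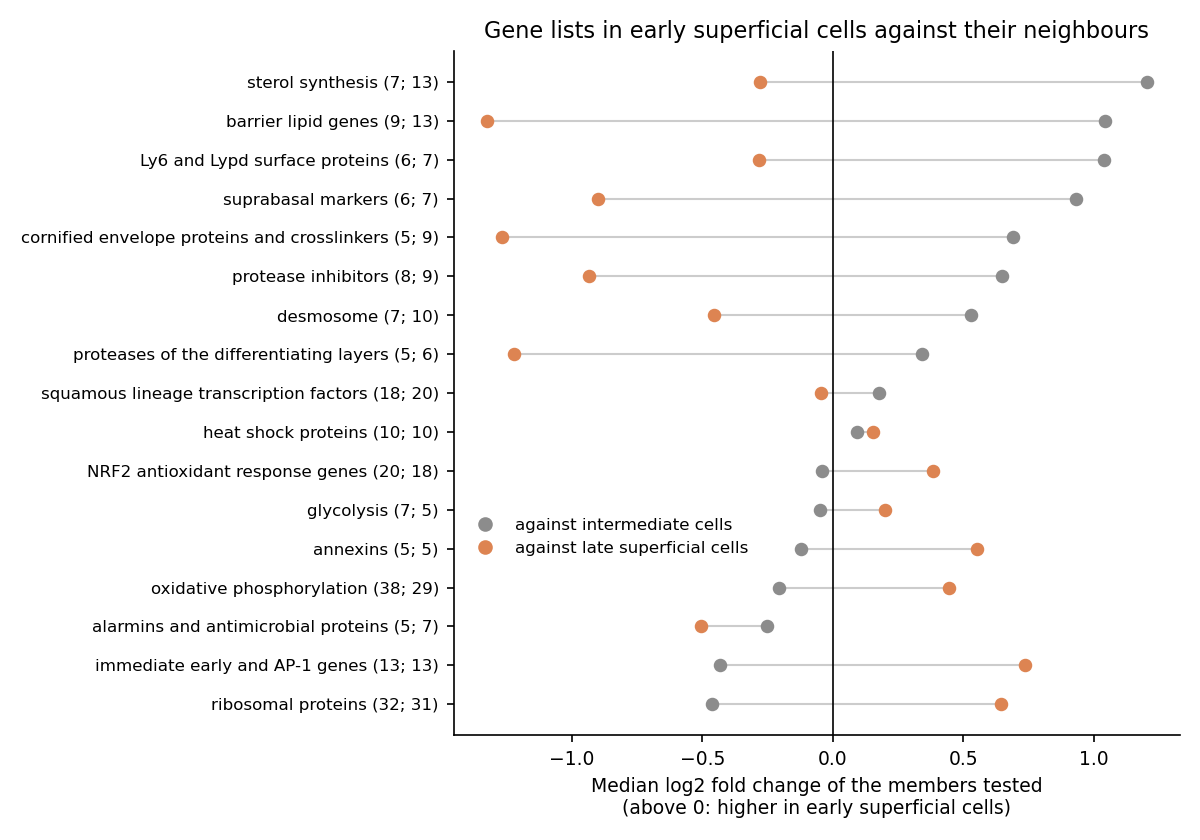
Median log2 fold change (x axis) of the tested members of each gene list (y axis, with the number tested against intermediate and against late superficial cells) in early superficial cells against intermediate cells (grey) and against late superficial cells (orange). Barrier lipid genes lie at 1.04 and -1.33, and ribosomal proteins at -0.46 and 0.65, on opposite sides of 0.

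Most tested envelope genes were lower than in late superficial cells. Defb4, a beta defensin, had 3 UMIs in early superficial cells and 329 in late superficial cells (ratio 233, counting interval 79.1 to 1136), and Sprr1b, a small proline rich protein of the cornified envelope, had 7 against 193 (ratio 58.6, interval 27.9 to 147.7). Lypd5, a Ly6 family surface protein, Wfdc5, a protease inhibitor, and Gsdma, a gasdermin, were lower, at -4.81 ± 0.28, -4.0 ± 0.30 and -3.97 ± 0.29. Of 26 envelope proteins and crosslinkers 9 were tested against late superficial cells, and 7 were lower and 1 higher (median -1.27), while 3 of 5 were higher and 0 lower than in intermediate cells (median 0.69) and 3 of 8 higher and 1 lower than in all other control cells. Of 24 alarmins and antimicrobial proteins, 4 of 7 tested were lower and 1 higher than in late superficial cells, and 2 of 6 were higher, S100a14 and S100a16, and 2 lower, S100a6 and S100a10, than in all other control cells. Over all genes 18.5% were higher and 18.8% lower than in late superficial cells. Against all other control cells these shares were 17.7% and 18.7%, and against intermediate cells 12.9% and 14.7%. Tgm3, a transglutaminase that crosslinks the envelope, stood at 2251 to 4460.1 CPM (median 3677), against 1043 to 3127 CPM (median 1802) in intermediate cells and 5192, 7862, 5724, 6799 and 7757 CPM in late superficial cells (0.92 ± 0.11 and -0.97 ± 0.12). The genes most above late superficial cells were Car12, a carbonic anhydrase (3.22 ± 0.34), Adh7, a retinol and alcohol dehydrogenase of upper digestive epithelium (2.59 ± 0.16), Ly6a, the surface protein Sca-1 (2.39 ± 0.33), Mt1, Dsc3 and Atp1b3, a subunit of the sodium potassium pump (2.04 ± 0.16).

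Dmkn, dermokine, Sbsn, suprabasin, and Krtdap lie side by side on chromosome 7 in the order Sbsn (chr7:30751471-30756134), Dmkn (chr7:30763756-30781063) and Krtdap (chr7:30787896-30791097, GRCm38, GENCODE annotation, plus strand). Dmkn stood at 5169.5 to 6660.1 CPM (median 5730.2) in early superficial, 1681 to 3405 CPM (median 2373) in intermediate and 6766, 7829, 8554, 7880.1 and 8495 CPM in late superficial cells (1.19 ± 0.10 and -0.43 ± 0.12), the second call being lost without the filter on low counts. Sbsn was higher than in intermediate cells by 0.76 ± 0.21 and lower than in late superficial cells, at -1.70 ± 0.17. Over 25 sums of mouse and class and 2055 genes, the levels most like that of Krtdap were those of 4833423E24Rik (r = 0.943), Lypd3 (0.939), Dsp (0.934), Fam25c (0.931) and Acsl1 (0.928), as log2 CPM with a pseudocount of 10. Krtdap is 1 of the genes that cut the classes and the sums share their mice and libraries, so these correlations are a description of what varies along the cut.

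Immediate early and ribosomal protein genes also lay between both neighbours, in the order opposite to that of the barrier lipid genes. Of 20 immediate early genes, which respond within minutes to signals and to tissue handling, 13 were tested against late superficial cells, and 11 were higher and 0 lower (median 0.74). Against intermediate cells 6 of 13 were lower and 0 higher (median -0.43). Nr4a1 and Atf3, stress-induced transcription factors, were at -1.20 ± 0.19 and -0.90 ± 0.18 against intermediate and 1.52 ± 0.33 and 1.41 ± 0.29 against late superficial cells. The part of dissociation at 37 °C in these values was not tested. Of 85 ribosomal protein genes, 22 of 32 tested were lower than in intermediate cells and 26 of 31 were higher than in late superficial cells, with medians of -0.46 and 0.65. Without TMM scaling the calls against intermediate cells split into 168 higher and 105 lower instead of 127 and 145, and the median of all genes moved from -0.05 to 0.05.

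Antioxidant genes did not move as 1 group. Of 29 genes of the NRF2 response 22 were tested against all other control cells, and 9 were higher and 3 lower, beside 17.7% and 18.7% of all genes. Gsta4 (1.14 ± 0.11) and Gstp1 (0.95 ± 0.16), glutathione transferases, Adh7 (1.00 ± 0.11), G6pdx, which supplies NADPH (0.90 ± 0.18), and Prdx6, a peroxiredoxin (0.73 ± 0.12), were higher. Gclm, a subunit of the enzyme of glutathione synthesis, Fth1, the ferritin heavy chain that stores iron, and Gpx1, a glutathione peroxidase, were lower, at -1.30 ± 0.17, -0.95 ± 0.12 and -0.56 ± 0.14. Fth1 stood at 658 to 1816 CPM (median 1278) against 2012 to 2792 CPM (median 2304), in the same sums in which Tfrc, the iron uptake receptor, was higher. Against intermediate cells 3 of 20 NRF2 genes tested were higher, Aldh3a1, Gsta4 and Prdx6, and 2 were lower, Fth1 and Gclm. Over all genes 12.9% were higher and 14.7% lower in that comparison. Against late superficial cells 9 of 18 NRF2 genes were higher and 4 lower, beside 18.5% and 18.8% of all genes. Of 79 genes of oxidative phosphorylation 56 were tested against all other control cells, and 2 were lower and 0 higher (median -0.02). Against intermediate cells 5 of 38 were lower and 0 higher (median -0.20), and against late superficial cells 10 of 29 were higher and 0 lower (median 0.44).

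Age was compared within the early superficial cells of 3 old and 3 young mice. Of 1769 genes 0 were higher (0%) and 2 were lower in old mice (0.113%) in edgeR, with 90 genes at an unadjusted p under 0.05, and DESeq2 called 1. H19, an imprinted long noncoding RNA of chromosome 7, stood at 0, 34.4 and 36.5 CPM (0, 4 and 3 UMIs) in old mice 3, 4 and 5 and at 560, 406 and 348 CPM (48, 19 and 30 UMIs) in young mice 1, 2 and 6. The groups did not overlap, and the difference of -3.72 ± 0.45 (adjusted p = 1.95e-07) was called under every alternative run. Krt6a, a keratin of wounded and stressed epithelium, stood at 41.1, 51.5 and 109.6 CPM (1, 6 and 9 UMIs) in old mice and at 489.8, 278 and 266 CPM (42, 13 and 23 UMIs) in young mice (-2.23 ± 0.41, adjusted p = 0.0017), a call that was lost under DESeq2 (-2.23, adjusted p = 0.0842) and without young mouse 1 (-1.85, adjusted p = 0.256 in edgeR).

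H19 was not low in old mice in these cells alone. On the basal side it stood at 440, 1233 and 1061 CPM in old mice and at 3410.0, 2135 and 2626 CPM in young mice, again without overlap. In a test of whether the age difference of early superficial cells differed from that of the other control cells, 1 of 2772 genes was called, lower in old early superficial cells (0.0361%), which was H19 at -2.44 ± 0.49 (adjusted p = 0.029). This call was lost under 10 of 21 alternatives, among them DESeq2 (adjusted p = 0.682). In edgeR the adjusted p of H19 was 0.987 without old mouse 4, 0.242 without old mouse 5, 0.0735 without young mouse 1 and 0.0913 without young mouse 6, with log2 differences from -2.58 to -2.34. The labelled markers Mt4, Dsc2 and Lypd3 were not called between old and young mice, at -0.14 ± 0.20, -0.55 ± 0.21 and 0.14 ± 0.21 (adjusted p = 0.99, 0.77 and 0.99).

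**Figure D5:**
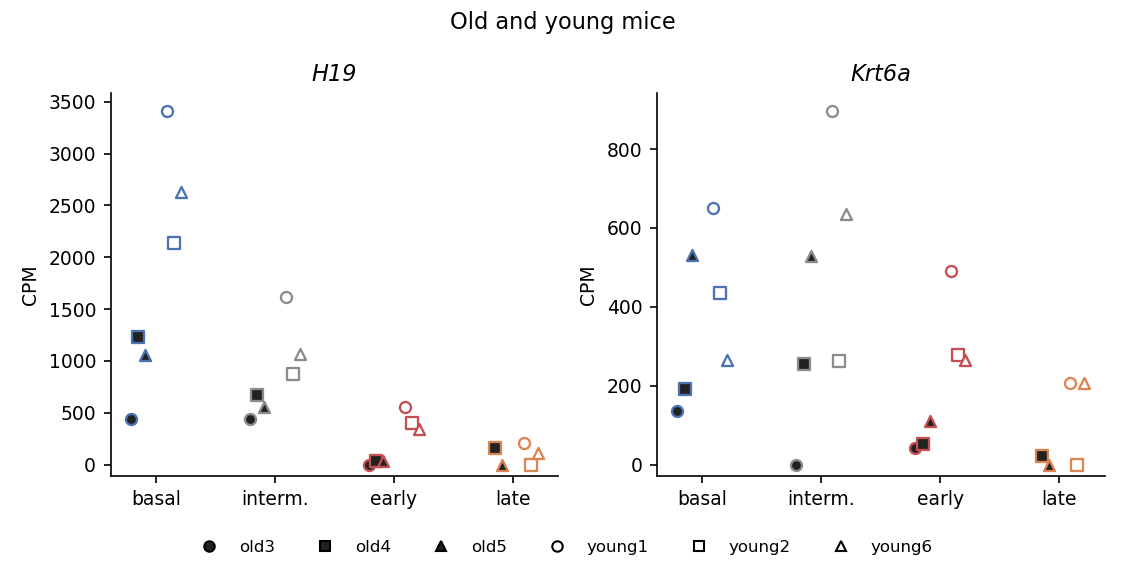
Level by mouse (y axis, CPM of UMIs outside the 10 genes of the rule) of H19 and Krt6a in the 4 classes (x axis), with filled symbols for old and open symbols for young mice. In early superficial cells the old mice stay at or below 36.5 CPM of H19 and 109.6 CPM of Krt6a, under every young mouse.

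The same rule was applied to the mice with EoE and ESCC after each cell was thinned to 250 UMIs, since depth differed between the conditions. In ESCC early superficial cells were 0.303%, 1.17% and 8.28% of the cells in 3 mice, below every control mouse (16.9 to 26.8%), with means of 3.25% ± 4.38 (SD, n = 3) and 21.5% ± 4.07 (n = 6). The two-sided exact permutation test gave p = 0.0238, the smallest this design can give (0.0357 adjusted over 3 comparisons of shares). In EoE they were 34.0%, 54.5%, 43.4% and 43.8% of the cells in 4 mice (43.9% ± 8.39, n = 4), above every control mouse (exact permutation p = 0.00952, the smallest possible, 0.0286 adjusted), but only 33 to 97 of the 246 to 487 cells of an EoE mouse held 250 UMIs. Without thinning the EoE difference turned from 22.4 to -6.71 percentage points (p = 0.0857, exact permutation test), so the direction in EoE changed with the cells counted. Among all cells without thinning, 161 of 246, 401 of 487, 306 of 382 and 291 of 385 cells of the EoE mice held under 10 keratin UMIs and could not be placed, against 1 to 7 in each control mouse. Thinned to 250 UMIs, 42.7 to 64.0% of the control cells, 12.1 to 45.4% of the EoE cells and 70.8 to 83.6% of the ESCC cells could not be placed either. Of the cells that could be placed, a denominator chosen after seeing the data, early superficial cells were 62.1 to 70.6% in EoE, 1.04 to 31.8% in ESCC and 35.7 to 48.8% in control mice at 250 UMIs, with the same exact permutation p as over all cells in both comparisons. Without thinning they were 66.0 to 76.3%, 0.765 to 10.2% and 18.6 to 30.5% of such cells. Of all cells without thinning, the shares were 24.0%, 11.9%, 15.2% and 16.1% in EoE and 1.75%, 0.756% and 10.1% in ESCC, against 18.0 to 30.4% in controls. The mice of 1 condition differ from the controls in age, depth and libraries as well as in treatment, and these cannot be told apart.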

How the data were processed

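The deposited tables hold UMI counts for each gene in each cell, as whole numbers without normalization. The authors extracted barcodes with UMI-tools 1.0.0, aligned with STAR 2.7.3 to GRCm38 with the GENCODE M23 annotation, assigned reads with featureCounts, filtered cells and genes in Seurat (cutoffs on genes and UMIs served against doublets and dead cells) and drew 1500 cells per condition. Cells lost by that draw and by dissociation are not analysed here.

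The cells, gene lists and named genes were chosen with earlier results of these data known. UMIs of the 2 libraries of a mouse were pooled and summed per class, sums of fewer than 5 cells were dropped, and the 10 genes of the rule were removed before library sizes. The sums were scaled by TMM, filtered by filterByExpr and compared with the quasi-likelihood test of edgeR 4.0.16 under R 4.3.3 (mouse as a block because both sums come from 1 animal, Benjamini-Hochberg threshold 0.05), after testing on simulated data. Old and young mice were compared without a block. Shares were compared by exact permutation tests in scipy 1.17.1. Doublets were called with Scrublet in scanpy 1.11.5, and figures drawn with matplotlib 3.10.9.

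Named genes were the labelled markers, the 10 genes (6 for each neighbouring class) of largest fold change in each direction with adjusted p under 0.05, average log2 CPM of at least 6 and 1 direction in every mouse, up to 5 genes of highest level per list with the called ones where these were few, and the 5 most like Krtdap. Other genes that the text names, with the sterol list, were picked once values had been seen. Alternatives were DESeq2 1.42.0, other filters, scalings and limits of the rule, thinning, and the omission of each mouse. Counting intervals are exact at 95% and cover counting error only. Promoters come from RefSeq (GRCm38.p6). The values of some genes of the lists are not reported here.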

Additional observations from a re-analysis of the deposited data

Results flagged for a closer look

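In the early superficial cells, 25 genes were checked over the 6 mice for 1 value far from the others, and 4 had one, where chance gives about 1 in 20 for values that are not near 0. Krtdap, a gene of the rule, stood at 12837 CPM of all UMIs in old mouse 4 and at 10012 to 11003 CPM in the other mice. Hsd17b7, a sterol reductase, stood at 82.2 CPM in old mouse 3, the mouse with 14 early superficial cells, and at 278 to 318 CPM in the others. The early superficial cells of old mouse 3 held 26352 UMIs in sum, so its Hsd17b7 level rests on few UMIs. Cav1 stood at 41.1 CPM in old mouse 3 against 0 to 11.7 CPM, and Cenpa at 12.2 CPM in old mouse 5 against 0 in all others, values that rest on 3 and 1 UMIs over all mice, so that 1 mouse of Cenpa had to stand apart and neither gene bears on the number expected by chance. The age difference of H19 was larger in early superficial cells than in the other control cells by -2.44 on the log2 scale (old minus young, interaction test in edgeR, adjusted p = 0.029). This call was lost under 10 of 21 alternatives, and the early superficial values of the old mice rested on few UMIs. H19 was lower in old mice in both sets of cells.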

How the results depend on the processing

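Of the genes named against all other, late superficial and intermediate cells, 111 of 148, 83 of 117 and 58 of 98 were called in all alternatives run. DESeq2 lowered the calls from 749, 411 and 272 to 473, 264 and 158, all of them among the calls of edgeR, and from 2 to 1 for age and from 1 to 0 for the interaction of age and class. Without the filter on low counts the calls were 1261 (408 higher, 853 lower) against other cells and 464 (307 higher, 157 lower) against intermediate cells, where COX1, CYTB and Hsp90ab1 turned to 0.041, 0.067 and 0.016, and 4 for age and 0 for the interaction. Without the replicate block, which pairs both sums of 1 mouse, the calls were 595, 381 and 208, and 0 for the interaction. Counting each shared barcode once, an alternative chosen after seeing the data, gave 648, 399, 260, 2 and 1 calls. Without TMM scaling, also chosen after seeing the data, they were 739, 405 and 273. Basal keratin under 5% gave 4 calls for age and 0 for the interaction, late genes under 0.25% 5 and 2, late genes under 1% and a choice at 500 UMIs 0 for the interaction. Leaving out 1 mouse gave 552 to 872, 313 to 485, 188 to 326, 1 to 5 and 0 to 3 calls. Without 1 ESCC mouse the difference in share was -20.8 to -16.8 percentage points, with p = 0.0714, the smallest exact permutation p then possible. In EoE the difference in share was -6.71 without thinning. At 500 UMIs, held by only 7 to 30 cells of an EoE mouse, it was 15.9 (exact permutation p = 0.105). Of the cells with at least 10 keratin UMIs alone, chosen after seeing the data, it was 22.2 in EoE and -30.7 in ESCC, and 46.0 and -19.5 without thinning. Without thinning, 65.4 to 82.3% of the cells of an EoE mouse could not be placed. The cause of the shifts, that in EoE included, was not tested. Depth limits genes at a few UMIs per class, and old mouse 3 gave 14 early superficial cells.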
